A study of Homo sapiens with 12 samples.

Results

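The 35 genes described here encode subunits of the lysosomal proton pump and proteins of the lysosomal membrane, and were chosen by gene name from the 57133 names counted in each library. Of the 35 genes, 34 passed the filter on low counts and were tested among 14504 genes; ATP6V0C was counted in every library but did not pass. MCF10-A is a non-tumorigenic human breast epithelial line, grown here at passages 12-15 with a transgene under a doxycycline-inducible promoter. All 12 cultures received 50 ng/ml doxycycline 20 hours after 150000 cells were seeded per well and were collected after 5 days. There were 4 groups of 3 biological replicates each: cells with mVenus-p16 that received the mTOR kinase inhibitor Torin2 at 100 nM from 24 hours after doxycycline; cells with mVenus-p21; cells with mVenus-p16 and no Torin2; and control cells with mVenus alone. The last 3 groups received the vehicle DMSO, and no group combined Torin2 with mVenus alone or with mVenus-p21, so an effect of Torin2 outside p16 cells was not measured. The p16 and p21 proteins are cyclin-dependent kinase inhibitors that arrest the cell cycle. The sources used here do not say whether each line was 1 clone.

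The vacuolar H+-ATPase acidifies the lysosome. Its V1 sector, on the cytosolic face, splits ATP, and its V0 sector, in the membrane, carries the protons across. Around the pump the membrane holds heavily glycosylated LAMP proteins, ion channels, an exchanger of chloride for protons, and carriers for cholesterol and amino acids. The kinase complex mTORC1 works on this membrane, and when active it keeps the transcription factor TFEB and its relatives in the cytoplasm; in the nucleus these factors bind an E-box sequence before many lysosomal genes.

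Promoter windows were in the RefSeq table for 27 of the 35 genes, each 300 bases long, from 250 before to 50 after an annotated start. The 8-base sequence TCACGTGA was found in windows of 4 of these genes, ATP6V0D1, ATP6V1G1, LAMP1 and MCOLN1, which is 4 of their 43 windows, against 0.980% of all 35116 windows of the same length and 1.18% of all 27305 genes with a window. The overlapping form GTCACGTG, read on either strand, was found in 6 of the 27 genes and 6 of the 43 windows, the same 4 genes with ATP6V0B and CLCN7, against 2.40% of all windows and 2.93% of all genes. Both contain the shorter CACGTG, which 8 of the 27 genes and 9 of the 43 windows held, ATP6V0E2 and CD63 in addition, against 7.26% of all windows and 8.77% of all genes. Genes with no entry were ATP6V1A, ATP6V1B2, ATP6V1C1, ATP6V1H, ATP6V0E1, LAMP2, LAMP3 and LAPTM4B. The 4 windows that hold TCACGTGA are printed 5′ to 3′ on the strand of the gene, with every match of TCACGTGA or GTCACGTG in capitals, and are shown because they hold that 8-base match. The windows are chr16:67481108-67481407 (minus strand) for ATP6V0D1, chr9:114587519-114587818 (plus) for ATP6V1G1, chr13:113296989-113297288 (plus) for LAMP1 and chr19:7522374-7522673 (plus) for MCOLN1, in RefSeq's GRCh38.p14.
ATP6V0D1: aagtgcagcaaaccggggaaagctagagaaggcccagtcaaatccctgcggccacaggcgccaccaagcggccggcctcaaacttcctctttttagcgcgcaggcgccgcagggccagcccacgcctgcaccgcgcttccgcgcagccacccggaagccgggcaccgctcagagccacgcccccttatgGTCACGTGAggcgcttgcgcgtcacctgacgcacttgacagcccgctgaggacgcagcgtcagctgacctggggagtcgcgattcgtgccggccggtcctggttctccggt
ATP6V1G1: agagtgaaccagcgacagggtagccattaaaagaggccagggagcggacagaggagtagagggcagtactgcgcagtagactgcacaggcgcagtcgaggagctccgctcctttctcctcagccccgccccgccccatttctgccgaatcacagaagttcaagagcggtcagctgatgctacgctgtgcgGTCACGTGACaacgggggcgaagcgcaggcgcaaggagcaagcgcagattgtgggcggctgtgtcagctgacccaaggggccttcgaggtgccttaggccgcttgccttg
LAMP1: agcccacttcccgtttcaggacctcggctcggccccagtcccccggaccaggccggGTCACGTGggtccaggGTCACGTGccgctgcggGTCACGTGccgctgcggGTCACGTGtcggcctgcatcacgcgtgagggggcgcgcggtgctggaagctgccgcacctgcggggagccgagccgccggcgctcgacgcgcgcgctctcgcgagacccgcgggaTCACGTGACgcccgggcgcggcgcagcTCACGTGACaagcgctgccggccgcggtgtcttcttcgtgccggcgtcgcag
MCOLN1: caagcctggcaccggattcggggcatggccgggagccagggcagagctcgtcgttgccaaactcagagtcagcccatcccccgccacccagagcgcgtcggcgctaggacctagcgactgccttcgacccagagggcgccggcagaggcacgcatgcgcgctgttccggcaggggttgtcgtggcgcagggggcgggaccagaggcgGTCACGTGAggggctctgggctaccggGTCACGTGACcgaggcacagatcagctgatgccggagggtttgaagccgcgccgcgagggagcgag
A match in letters is a description and not a binding site.

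Libraries held 13168749 to 18321114 counts in genes. Replicates of a group had r = 0.992 to 0.994 between log2 levels across genes, and differed by more than sampling noise. CDKN2A, which encodes p16, had 0 counts in all 12 libraries, so the p16 label could not be checked on it. CDKN1A, which encodes p21, averaged 259 ± 17.0 CPM in p16 with Torin2, 889 ± 16.5 CPM in p21, 570.3 ± 30.1 CPM in p16 and 712 ± 13.0 CPM in mVenus (CPM, counts scaled to a common library size; SD, n = 3 each). It rose in p21 (0.32, log2 scale) and fell in p16 (-0.32) and with Torin2 over p16 (-1.14). MKI67, a proliferation marker, averaged 51.6 ± 0.647 CPM in p16 with Torin2, 3.35 ± 0.425 CPM in p21, 10.1 ± 0.427 CPM in p16 and 331 ± 15.6 CPM in mVenus (SD, n = 3 each). All 8 breast epithelial markers were detected, while among leukocyte markers CD3E and TYROBP had no count and PTPRC reached at most 0.0524 CPM. The whole list of 8 leukocyte markers summed to 108 to 111 CPM in p21 and 114 to 127 CPM in p16, mostly CSF1R and CD14. Fibroblast markers summed to up to 117 CPM in p21 and endothelial markers to up to 28.1 CPM in p16, as given below.

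Summed over the 35 genes, RNA levels were 3580 ± 27.6 CPM in p16 with Torin2, 4909 ± 23.0 CPM in p21, 5058 ± 29.3 CPM in p16 and 4295 ± 50.5 CPM in mVenus (SD, n = 3 each). The 4 ranges did not overlap with the TMM scaling used for these levels. The TMM factors were 0.967 to 0.972 in p16, 0.987 to 0.9996 in p21 and 1.04 to 1.05 in mVenus. Part of the difference between the sums depends on these factors. Whether the p16 and p21 ranges stay apart with library totals alone was not tested. p16 cells were above the mVenus control in 19 of the 34 tested genes and below it in 6, at an adjusted p under 0.05. Across all genes tested, 30.9% rose and 32.8% fell in that comparison. p21 cells were above mVenus in 17 and below it in 5, against 28.2% rising and 28.3% falling among all genes. With Torin2, 26 of the 34 fell relative to p16 without it and 1 rose, against 29.0% falling and 30.3% rising among all genes. The median log2 fold change of the 34 was 0.18 in p16, 0.12 in p21 and -0.42 with Torin2 over p16, while the median of all genes was -0.0036 in p16, -0.0037 in p21 and 0.023 with Torin2 over p16. p16 over mVenus and p21 over mVenus share the mVenus libraries, both Torin2 comparisons share the Torin2 libraries, and p16 over mVenus and Torin2 over p16 share the p16 libraries, so their values are given side by side and not as independent results.

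**Figure D1:**
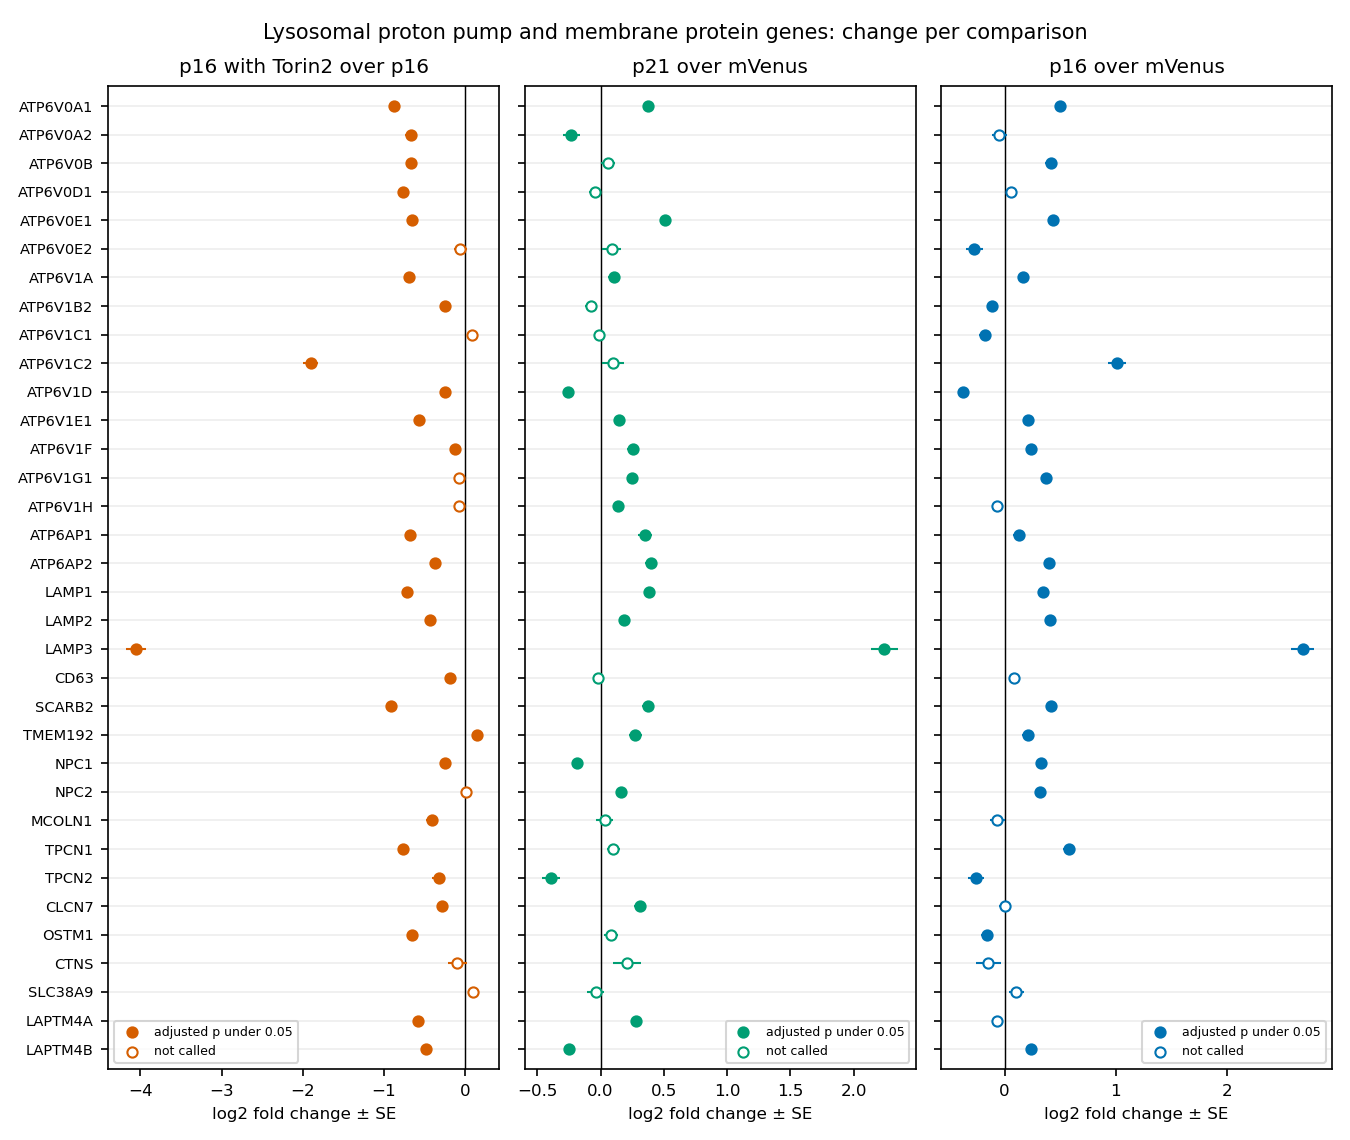
Log2 fold change (points) and standard error (bars) of the 34 tested genes, ordered by role, in p16 with Torin2 over p16, p21 over mVenus and p16 over mVenus. Each panel has its own horizontal scale, filled points passed an adjusted p under 0.05, and LAMP3 lies farthest from 0 in all 3 panels, at -4.05 with Torin2 over p16, 2.24 in p21 and 2.68 in p16.

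The counts depended on scaling, for all genes as for the 34. With library totals alone, 16 of the 34 rose and 11 fell in p16, where 3449 of all 14504 genes rose and 5893 fell and the median of all genes was -0.11 on the log2 scale. In p21, 13 of the 34 rose and 8 fell with that scaling, where 3307 of all genes rose and 5052 fell. With Torin2 over p16, 2 of the 34 rose and 25 fell, where 4892 of all genes rose and 3832 fell. The rises of ATP6V1A, ATP6AP1 and TMEM192 in p16 and of ATP6V1A, ATP6V1E1, ATP6V1H and NPC2 in p21 did not pass with library totals alone. ATP6V0A2, ATP6V1H, MCOLN1, CLCN7 and LAPTM4A in p16 and ATP6V0D1, ATP6V1B2 and CD63 in p21 passed as lower with library totals alone and not with TMM. In bulk RNA a smaller share of cells expressing a gene and less RNA per cell cannot be told apart.

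LAMP3 varied most. It encodes a lysosome-associated membrane glycoprotein known from mature dendritic cells and induced by interferon in other cells, and lies at chr3:183122213-183163839 (minus strand, GENCODE 29 on GRCh38). LAMP3 stood at 5.54, 6.01 and 6.56 CPM in p16 with Torin2, 72.6, 71.0 and 78.7 CPM in p21, 93.5, 88.3 and 119 CPM in p16, against 16.2, 17.7 and 13.5 CPM in mVenus. The p21 and p16 libraries all lay above the mVenus libraries, the Torin2 libraries all lay below them, and no 2 groups overlapped. Its log2 fold change was 2.68 ± 0.10 (SE, edgeR adjusted p = 5.5e-15) in p16 and 2.24 ± 0.11 (SE, edgeR adjusted p = 2.3e-13) in p21. With Torin2 it was -4.05 ± 0.12 (SE, edgeR adjusted p = 3.1e-16) relative to p16 and -1.37 ± 0.16 (SE, edgeR adjusted p = 2.3e-07) relative to mVenus.

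The 8 breast epithelial markers summed to 10750 ± 158 CPM with Torin2, 11025 ± 162 CPM in p21, 16995 ± 371 CPM in p16 and 9764 ± 202 CPM in mVenus (SD, n = 3 each). The summed RNA of leukocyte marker genes was higher in p16 and p21 than in mVenus, at far lower levels. The summed level of that list of 8 was 51.5 to 56.0 CPM with Torin2, 108 to 111 CPM in p21, 114 to 127 CPM in p16 and 54.5 to 58.3 CPM in mVenus. CSF1R and CD14 made up nearly all of it, CSF1R alone averaging 87.1 ± 2.45 CPM in p21 and 40.0 ± 0.719 CPM in mVenus. Of the 3 tested genes of the list, CSF1R and CD14 rose in p16 and p21, while ITGAX, named after its values were seen, fell in p16 (-2.09, log2 scale) and in p21 (-3.34). PTPRC, CD3E and TYROBP of the same list were at or near 0 in every library. Fibroblast markers summed to 5.60 to 5.90 CPM with Torin2, 111 to 117 CPM in p21, 6.98 to 7.48 CPM in p16 and 20.2 to 20.6 CPM in mVenus, with DCN alone at 109 ± 2.24 CPM in p21. DCN rose in p21 (3.34, log2 scale) and fell in p16 (-1.83), while COL1A1 of the same list fell in both p21 (-1.23) and p16 (-1.21). Endothelial markers summed to 8.02 to 10.9 CPM with Torin2, 2.72 to 4.04 CPM in p21, 23.3 to 28.1 CPM in p16 and 5.11 to 6.10 CPM in mVenus. Of the 3 tested endothelial genes, 2 rose in p16, 3 fell in p21 and 2 fell with Torin2 over p16, ROBO4 averaging 21.8 ± 2.56 CPM in p16 and 2.33 ± 0.525 CPM in mVenus. Shares of all genes were 30.9% rising and 32.8% falling in p16, 28.2% and 28.3% in p21, and 29.0% falling with Torin2 over p16. Lists of 3 tested genes are too short to set against these shares. The part of leukocytes, fibroblasts or endothelial cells in the results was not tested.

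The other LAMP proteins moved less. LAMP1, the highest of the 3 LAMP genes per length, stood at 356, 356 and 353 CPM in p16 with Torin2, 599, 596 and 606 CPM in p21, 596, 579 and 576 CPM in p16, against 458, 469 and 455 CPM in mVenus. Every p21 and p16 library was above every mVenus library, and every Torin2 library was below. The log2 fold change was 0.34 ± 0.030 (SE, edgeR adjusted p = 4.0e-09) in p16, 0.38 ± 0.030 (SE, edgeR adjusted p = 9.5e-10) in p21 and -0.72 ± 0.030 (SE, edgeR adjusted p = 4.8e-14) with Torin2 over p16. LAMP2, which also serves in chaperone-mediated autophagy, rose by 0.41 in p16 and by 0.19 in p21 on the log2 scale, and fell with Torin2 over p16 (-0.43). Its Torin2 level did not pass the test against mVenus (-0.025 ± 0.042, SE, adjusted p = 0.62).

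Per kilobase of exon, LAMP3 averaged 1.58 ± 0.134 CPM per kilobase with Torin2, 19.4 ± 1.07 in p21, 26.3 ± 4.37 in p16 and 4.13 ± 0.561 in mVenus (SD, n = 3 each). LAMP1 averaged 61.8 ± 0.316 CPM per kilobase with Torin2, 105 ± 0.921 in p21, 102 ± 1.90 in p16 and 80.3 ± 1.29 in mVenus (SD, n = 3 each). LAMP3 stood 33rd of the 35 genes with Torin2, 17th in p21, 14th in p16 and 29th in mVenus. The length counts every annotated exon of a gene, from 789 bases for ATP6V1F to 19341 for SCARB2. The order between genes therefore depends on annotation as well as on RNA level. At the top of the order in mVenus were CD63 (160.6 ± 4.88), LAPTM4A (132 ± 3.53) and ATP6V0E1 (131 ± 3.68 CPM per kilobase), and the LAPTM4A and ATP6V0E1 libraries overlapped. SLC38A9, a sensor of lysosomal arginine, was the lowest tested gene there at 1.95 ± 0.0188 CPM per kilobase.

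**Figure D2:**
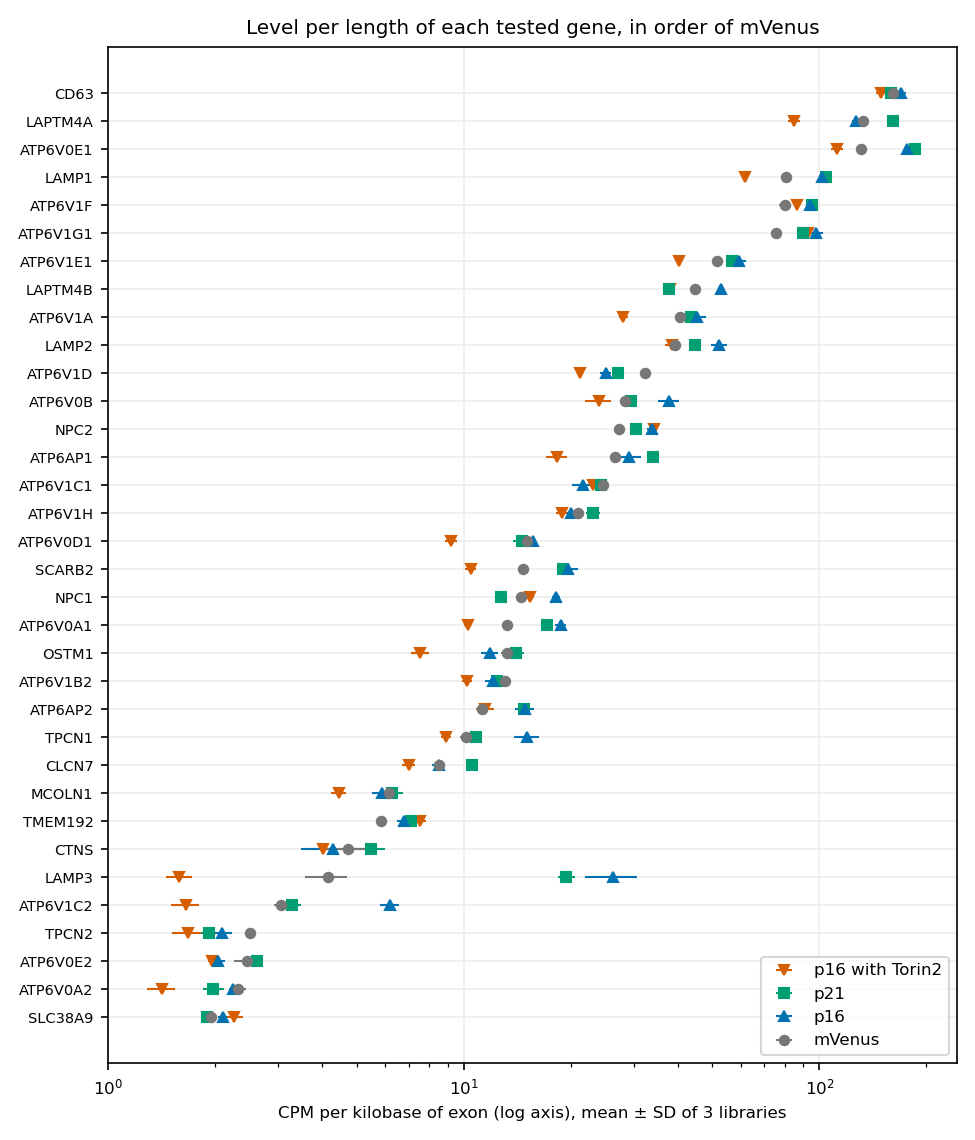
Mean level of the 34 tested genes in CPM per kilobase of exon on a log axis, with SD bars over 3 libraries, in order of the mVenus level. LAMP3 spans 1.58 CPM per kilobase with Torin2 to 26.3 in p16, while CD63 stays between 149 and 169.8 in all 4 groups.

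SCARB2, the receptor that carries beta-glucocerebrosidase to the lysosome, stood at 209.6, 194 and 202 CPM in p16 with Torin2, 363, 364 and 374 CPM in p21, 359, 372 and 408 CPM in p16, against 289, 286 and 276 CPM in mVenus. Each p21 and p16 library exceeded each mVenus library and the Torin2 libraries were lowest. It changed by 0.42 ± 0.043 (SE, edgeR adjusted p = 3.0e-08) in p16, by 0.37 ± 0.043 (SE, edgeR adjusted p = 2.6e-07) in p21 and by -0.91 ± 0.044 (SE, edgeR adjusted p = 3.3e-13) with Torin2 over p16. CD63, a tetraspanin of late endosomes, did not pass in p16 (0.080 ± 0.035, SE, adjusted p = 0.052) or in p21 (-0.017 ± 0.035, SE, adjusted p = 0.71), and fell with Torin2 over p16 (-0.19, log2 scale). The p16 value passed under 6 of the 19 alternative settings, with adjusted p down to 0.0038 over all 19.

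TMEM192, a membrane protein used to isolate lysosomes, was the 1 gene of the 34 that was called higher with Torin2 than in p16. It stood at 80.6, 75.2 and 75.2 CPM in p16 with Torin2, 72.6, 68.6 and 76.3 CPM in p21, 66.1, 72.1 and 69.8 CPM in p16, against 59.6, 58.2 and 61.8 CPM in mVenus. All 9 libraries of the other 3 groups exceeded the mVenus libraries, the Torin2 libraries all exceeded those of p16, and the p21 libraries overlapped both. It changed by 0.15 ± 0.051 (SE, edgeR adjusted p = 0.014) with Torin2 over p16 and by 0.36 ± 0.051 (SE, edgeR adjusted p = 2.9e-06) with Torin2 over mVenus. Without the first library of p16 or the first of p16 with Torin2, the rise over p16 did not pass, with adjusted p of up to 0.073.

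In the V0 sector, 3 of the 6 tested subunits rose in p16 and 1 fell, 2 rose and 1 fell in p21, and 5 fell with Torin2 over p16. The shares of all genes were 30.9% rising and 32.8% falling in p16, 28.2% and 28.3% in p21, and 29.0% falling with Torin2 over p16. All 6 fell with Torin2 over mVenus; among all genes 36.1% fell and 31.2% rose there, and of the 34 genes 24 fell and 6 rose, with a median log2 fold change of -0.31 against -0.032 for all genes. ATP6V0A1, the a1 subunit, which carries the proton path, stood at 110.1, 115 and 111 CPM in p16 with Torin2, 190.1, 187 and 186 CPM in p21, 209, 210.0 and 196 CPM in p16, against 146, 147 and 141 CPM in mVenus. The 4 groups did not overlap, with the Torin2 libraries lowest and the p16 libraries highest. Its log2 fold change was 0.50 ± 0.038 (SE, edgeR adjusted p = 3.2e-10) in p16, 0.37 ± 0.038 (SE, edgeR adjusted p = 4.3e-08) in p21 and -0.87 ± 0.039 (SE, edgeR adjusted p = 1.0e-13) with Torin2 over p16. ATP6V0A2, the a2 subunit found mainly on the Golgi and endosomes, had 21.4, 18.1 and 18.6 CPM in p16 with Torin2, 26.7, 29.1 and 25.5 CPM in p21, 30.9, 30.0 and 31.5 CPM in p16, against 33.2, 29.9 and 32.2 CPM in mVenus. The Torin2 libraries were lowest, the p21 libraries came next, and the p16 and mVenus libraries overlapped above them. ATP6V0A2 did not pass in p16 (-0.048 ± 0.066, SE) and fell in p21 (-0.23, log2 scale) and with Torin2 over p16 (-0.67).

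ATP6V0E1, the small e1 subunit, stood at 177, 190.2 and 179 CPM in p16 with Torin2, 298, 299 and 309 CPM in p21, 283, 289 and 287 CPM in p16, against 219, 209 and 208 CPM in mVenus. All p21 and p16 libraries exceeded all mVenus libraries, which exceeded all Torin2 libraries. The log2 fold change was 0.43 ± 0.036 (SE, edgeR adjusted p = 1.9e-09) in p16, 0.51 ± 0.036 (SE, edgeR adjusted p = 1.9e-10) in p21 and -0.65 ± 0.037 (SE, edgeR adjusted p = 5.0e-12) with Torin2 over p16. Its paralog ATP6V0E2 had 13.0, 13.5 and 13.0 CPM in p16 with Torin2, 17.6, 17.1 and 18.2 CPM in p21, 13.6, 14.4 and 13.1 CPM in p16, against 17.9, 16.7 and 15.2 CPM in mVenus. The Torin2 and p16 libraries overlapped each other and lay below those of p21 and mVenus. ATP6V0E2 fell in p16 (-0.27 ± 0.076, SE, adjusted p = 0.0037), did not pass in p21 (0.087 ± 0.073, SE), and was the gene with the highest value in p21 over p16 (0.36 ± 0.076, SE, adjusted p = 0.00045). Of its exonic bases, 19.7% are shared with other genes, and the part of this in its counts was not tested.

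ATP6V0D1, which links the V0 rotor to the V1 stalk, had 72.2, 76.0 and 78.2 CPM in p16 with Torin2, 127, 114 and 117 CPM in p21, 131, 128 and 127 CPM in p16, against 121, 127 and 122 CPM in mVenus. The Torin2 libraries were apart and lower, while the p21, p16 and mVenus libraries overlapped. It changed by -0.77 ± 0.046 (SE, edgeR adjusted p = 1.1e-11) with Torin2 over p16 and passed in neither p16 (0.060 ± 0.043, SE) nor p21 (-0.047 ± 0.044, SE) over mVenus. ATP6V0B, a rotor subunit, rose by 0.42 in p16, did not pass in p21 (0.062 ± 0.055, SE) and fell with Torin2 over p16 (-0.66, log2 scale).

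ATP6V0C, the main proton-carrying rotor subunit, had only 1 to 11 counts in any library, at chr16:2513870-2520218 (plus strand, GENCODE 29 on GRCh38). Of its 1498 exonic bases, 72.1% lie in exons of other genes, most in AC093525.2, which had 0 counts in all 12 libraries. The read counter leaves reads that overlap several genes unassigned unless told otherwise, so the RNA level of ATP6V0C is uncertain and no change is given.

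In the V1 sector, 5 of the 9 subunits rose in p16 and 3 fell, 5 rose and 1 fell in p21, and 6 fell with Torin2 over p16. Among all genes, 30.9% rose and 32.8% fell in p16, 28.2% rose and 28.3% fell in p21, and 29.0% fell with Torin2 over p16. The 33.3% of V1 subunits that fell in p16 was near the share of all genes. ATP6V1C2, the C2 form of the subunit that joins the V1 stator to V0, lies at chr2:10721100-10785110 (plus strand). It had 6.32, 5.30 and 5.64 CPM in p16 with Torin2, 12.1, 11.5 and 10.8 CPM in p21, 20.7, 20.8 and 23.1 CPM in p16, against 10.4, 10.3 and 11.2 CPM in mVenus. The p16 libraries stood alone above the rest, the Torin2 libraries were lowest, and the p21 and mVenus libraries overlapped. Its log2 fold change was 1.01 ± 0.079 (SE, edgeR adjusted p = 6.4e-10) in p16, -1.90 ± 0.090 (SE, edgeR adjusted p = 3.0e-13) with Torin2 over p16 and -0.91 ± 0.080 (SE, edgeR adjusted p = 5.9e-09) in p21 over p16. In p21 over mVenus it did not pass (0.10 ± 0.088, SE, adjusted p = 0.35). Exons of other genes, chiefly PDIA6, cover 29.9% of its exonic bases.

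ATP6V1C1, the widely expressed C1 form, had 140.2, 131 and 134 CPM in p16 with Torin2, 139, 145 and 144 CPM in p21, 119, 125 and 137 CPM in p16, against 146, 143 and 142 CPM in mVenus. The p16 libraries lay below all p21 and mVenus libraries and overlapped those with Torin2. It fell in p16 (-0.18 ± 0.046, SE, adjusted p = 0.0020) and passed in neither p21 over mVenus (-0.0091 ± 0.046, SE) nor Torin2 over p16 (0.090 ± 0.047, SE), where it passed under 3 of the 19 alternative settings, among them without the third p16 library. Of the per-length level of both C forms together, ATP6V1C2 made up 7.04, 6.37 and 6.62% in p16 with Torin2, 12.8, 11.8 and 11.2% in p21, 22.7, 21.9 and 22.1% in p16, against 10.7, 10.8 and 11.7% in mVenus. The p16 share was apart from and above the other 3 groups, and the Torin2 share apart from and below them. Other genes share 29.9% of the exonic bases of ATP6V1C2 and 0.667% of those of ATP6V1C1. The length used includes shared bases, so the size of the ATP6V1C2 share may be understated in all 4 groups.

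ATP6V1D, a rotor stalk subunit, was lower in all 3 groups than in mVenus. It stood at 91.3, 88.9 and 89.8 CPM in p16 with Torin2, 112, 116 and 118 CPM in p21, 105, 104 and 110.4 CPM in p16, against 143, 138 and 133 CPM in mVenus. The Torin2 libraries were lowest, the mVenus libraries highest, and p21 and p16 libraries lay between without overlap with either. It changed by -0.37 ± 0.041 (SE, edgeR adjusted p = 1.1e-07) in p16, by -0.26 ± 0.041 (SE, edgeR adjusted p = 2.0e-05) in p21 and by -0.24 ± 0.043 (SE, edgeR adjusted p = 5.9e-05) with Torin2 over p16. ATP6V1G1, a stator subunit, stood at 129.8, 115 and 119 CPM in p16 with Torin2, 119, 117 and 117 CPM in p21, 125, 124 and 134 CPM in p16, against 99.4, 97.6 and 99.2 CPM in mVenus. Its mVenus libraries were below all 9 others, and the Torin2 libraries overlapped those of both p21 and p16. It rose by 0.37 in p16 and by 0.25 in p21 on the log2 scale, and did not pass with Torin2 over p16 (-0.070 ± 0.045, SE, adjusted p = 0.19), but passed without the first Torin2 library (adjusted p = 0.031).

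The catalytic A subunit ATP6V1A rose by 0.16 in p16 on the log2 scale and fell with Torin2 over p16 (-0.69); its rise of 0.10 in p21 did not pass under 8 of the 19 alternative settings. ATP6V1B2, the other subunit of the ATP-splitting ring, fell in p16 (-0.12), a call lost under 8 of the 19, and with Torin2 over p16 (-0.24). The stator subunit ATP6V1E1 rose by 0.21 in p16 and by 0.14 in p21 and fell with Torin2 over p16 (-0.56). ATP6V1F, a rotor stalk subunit with 23.7% of its exonic bases shared with KCP, rose by 0.24 in p16 and by 0.26 in p21, and its fall with Torin2 over p16 (-0.12) was lost under 4 of the 19. The regulatory subunit ATP6V1H rose by 0.14 in p21, a call lost with library totals alone and without the first p21 library (adjusted p of up to 0.18), and passed in neither p16 over mVenus (-0.073 ± 0.043, SE) nor Torin2 over p16 (-0.077 ± 0.044, SE).

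Both accessory subunits rose in p16 and p21 and fell with Torin2 over p16. ATP6AP2, the prorenin receptor, had 117, 106 and 106 CPM in p16 with Torin2, 140.4, 140.3 and 144 CPM in p21, 134, 141 and 151 CPM in p16, against 106, 107 and 109.5 CPM in mVenus. The p21 and p16 libraries all exceeded the mVenus libraries, with which the Torin2 libraries overlapped. It rose by 0.40 ± 0.047 (SE, edgeR adjusted p = 2.9e-07) in p16 and by 0.40 ± 0.047 (SE, edgeR adjusted p = 4.7e-07) in p21, and changed by -0.37 ± 0.047 (SE, edgeR adjusted p = 1.0e-06) with Torin2 over p16. ATP6AP1 rose by 0.35 in p21 on the log2 scale and fell with Torin2 over p16 (-0.67). Its smaller rise of 0.13 in p16 did not pass under 6 of the 19 alternative settings.

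**Figure D3:**
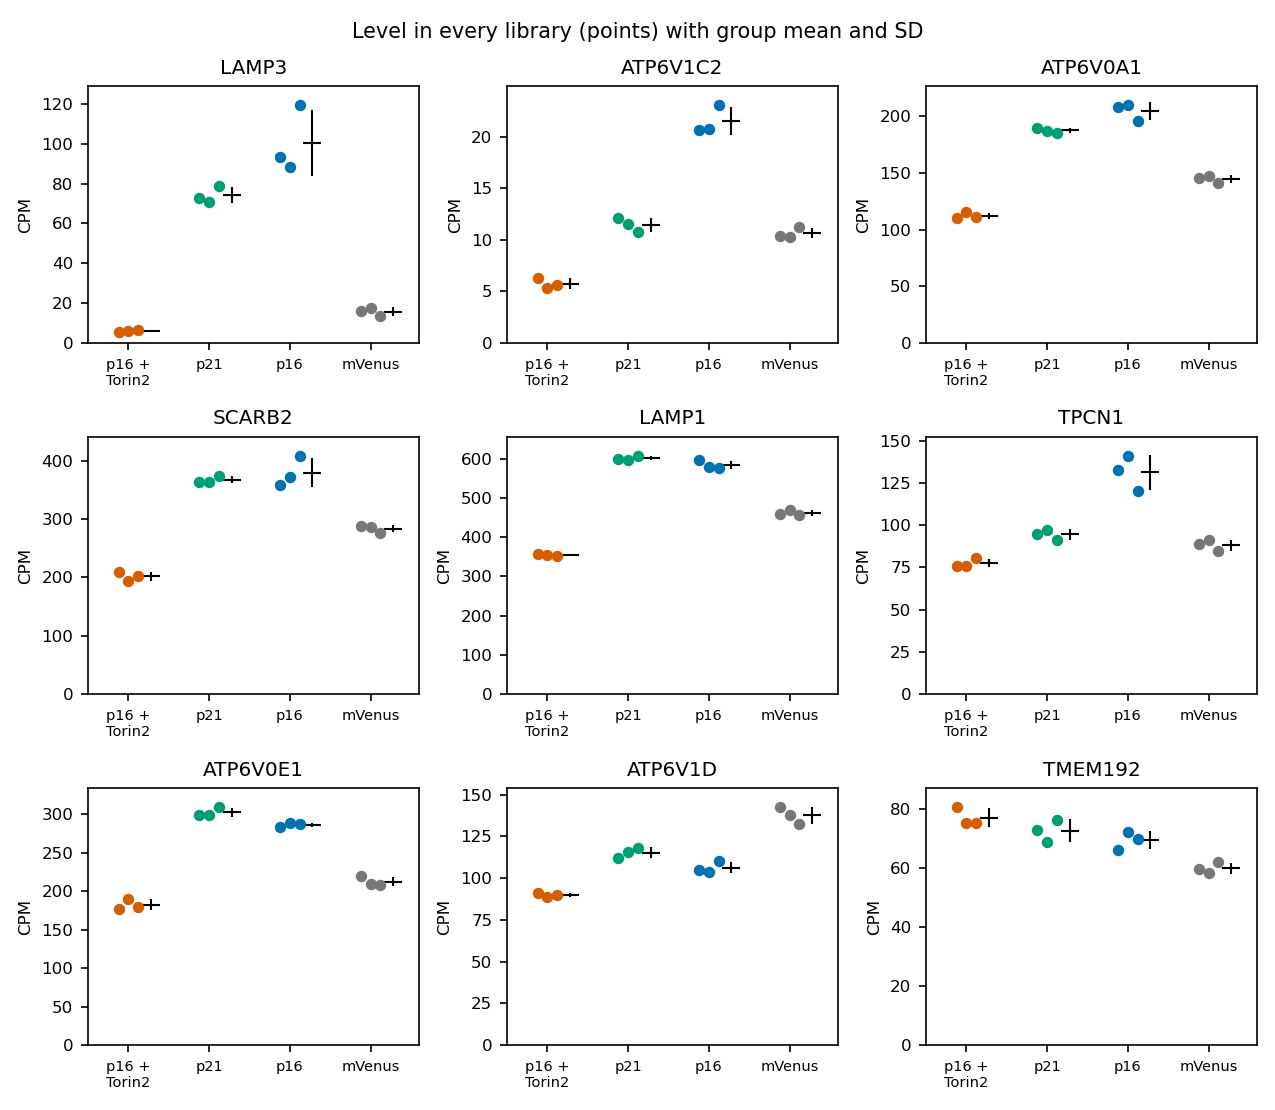
Level in CPM of 9 genes in each of the 12 libraries (points), with the mean and SD of each group of 3 (bar), groups running from p16 with Torin2 at left to mVenus at right. The 9 genes were picked after their values were seen; LAMP3, SCARB2, LAMP1, ATP6V0A1 and ATP6V0E1 are lowest with Torin2, and ATP6V1D is highest in mVenus.

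Among ion channels and the exchanger, 1 of 5 genes rose in p16 and 2 fell, 1 rose and 1 fell in p21, and all 5 fell with Torin2 over p16. Of all genes tested, 30.9% rose and 32.8% fell in p16, 28.2% rose and 28.3% fell in p21, and 29.0% fell with Torin2 over p16. TPCN1, a cation channel of endosomes and lysosomes, stood at 76.0, 76.1 and 80.5 CPM in p16 with Torin2, 94.9, 97.4 and 91.4 CPM in p21, 133, 141 and 120.1 CPM in p16, against 89.0, 91.1 and 84.6 CPM in mVenus. The p16 libraries were above all others, the Torin2 libraries below, and p21 libraries lay just above those of mVenus. It changed by 0.58 ± 0.052 (SE, edgeR adjusted p = 5.3e-09) in p16 and by -0.76 ± 0.053 (SE, edgeR adjusted p = 1.3e-10) with Torin2 over p16, and did not pass in p21 (0.10 ± 0.053, SE), though it did under 3 of the 19 alternative settings, among them without the third p16 library. TPCN2, the related channel, had 15.4, 18.6 and 17.6 CPM in p16 with Torin2, 20.3, 20.1 and 18.6 CPM in p21, 23.0, 20.4 and 21.1 CPM in p16, against 25.5, 25.6 and 26.1 CPM in mVenus. Its mVenus libraries were higher than those of the other 3 groups. It fell in all 3 comparisons, the log2 fold change being -0.33 with Torin2 over p16, -0.39 in p21 and -0.26 in p16.

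CLCN7, the chloride-proton exchanger, rose in p21 (0.31 ± 0.046, SE, adjusted p = 9.6e-06), did not pass in p16 (-0.00047 ± 0.047, SE) and fell with Torin2 over p16 (-0.28, log2 scale). OSTM1, its partner subunit, stood at 42.5, 39.7 and 37.9 CPM in p16 with Torin2, 76.0, 70.1 and 77.3 CPM in p21, 62.1, 60.1 and 66.9 CPM in p16, against 71.6, 72.1 and 67.4 CPM in mVenus. The Torin2 libraries were apart and lowest, and the p16 libraries were all below the mVenus ones. OSTM1 changed by -0.65 ± 0.059 (SE, edgeR adjusted p = 6.7e-09) with Torin2 over p16 and by -0.81 ± 0.058 (SE, edgeR adjusted p = 1.1e-10) with Torin2 over mVenus. Its fall in p16 (-0.16) was lost under 5 of the 19 settings. MCOLN1, the calcium channel TRPML1, passed in neither p16 (-0.064 ± 0.069, SE) nor p21 (0.032 ± 0.069, SE), and fell with Torin2 over p16 (-0.41).

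The 4 genes whose promoter windows are printed had log2 fold changes with Torin2 over p16 of -0.77 (ATP6V0D1), -0.72 (LAMP1), -0.41 (MCOLN1) and -0.070 (ATP6V1G1). The first 3 passed the test and ATP6V1G1 did not. Of all 34 tested genes, 26 fell in that comparison, against 29.0% of all genes. ATP6V0B (-0.66) and CLCN7 (-0.28), which hold GTCACGTG without TCACGTGA, fell as well. A link between these sequences and the changes was not tested.

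The cholesterol carriers differed between p16 and p21. NPC1, which takes cholesterol out through the membrane, stood at 151, 159 and 155 CPM in p16 with Torin2, 129.9, 124 and 131 CPM in p21, 185, 188 and 178 CPM in p16, against 148, 146 and 144 CPM in mVenus. The p16 libraries were highest, the p21 libraries lowest, and neither overlapped the mVenus libraries. NPC1 rose in p16 (0.33 ± 0.037, SE, adjusted p = 1.6e-07), fell in p21 (-0.19 ± 0.038, SE, adjusted p = 0.00026) and differed by -0.52 ± 0.038 (SE, edgeR adjusted p = 3.5e-10) between p21 and p16. NPC2, the soluble protein that hands cholesterol to NPC1, had 94.5, 94.4 and 93.6 CPM in p16 with Torin2, 84.1, 82.8 and 84.8 CPM in p21, 96.4, 90.2 and 92.9 CPM in p16, against 75.5, 76.1 and 73.0 CPM in mVenus. Its mVenus libraries were below all others. It rose by 0.32 in p16 and 0.16 in p21 on the log2 scale, and did not pass with Torin2 over p16 (0.014 ± 0.040, SE, adjusted p = 0.78).

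LAPTM4A and LAPTM4B, paired multispanning membrane proteins, moved in opposite ways between p21 and p16. LAPTM4A had 168, 169 and 158 CPM in p16 with Torin2, 317, 315 and 307 CPM in p21, 239.9, 252 and 246 CPM in p16, against 265, 255 and 252 CPM in mVenus. The p21 libraries were highest and the Torin2 libraries lowest, and the p16 and mVenus libraries overlapped, without passing the test (-0.066 ± 0.037, SE). LAPTM4B, which was first described in liver cancer, had 119, 123 and 123 CPM in p16 with Torin2, 125, 119 and 119 CPM in p21, 165, 172 and 169 CPM in p16, against 144, 144 and 141 CPM in mVenus. Its p16 libraries were highest, and its Torin2 and p21 libraries overlapped below those of mVenus. LAPTM4A changed by 0.35 ± 0.037 (SE, edgeR adjusted p = 8.5e-08) and LAPTM4B by -0.48 ± 0.037 (SE, edgeR adjusted p = 7.0e-10) in p21 over p16. LAPTM4B rose in p16 (0.24 ± 0.036, SE, adjusted p = 8.7e-06) and fell in p21 (-0.25 ± 0.037, SE, adjusted p = 1.0e-05). Both fell with Torin2 over p16, LAPTM4A with -0.58 ± 0.038 (SE, edgeR adjusted p = 5.3e-11) and LAPTM4B with -0.48 ± 0.037 (SE, edgeR adjusted p = 7.3e-10).

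**Figure D4:**
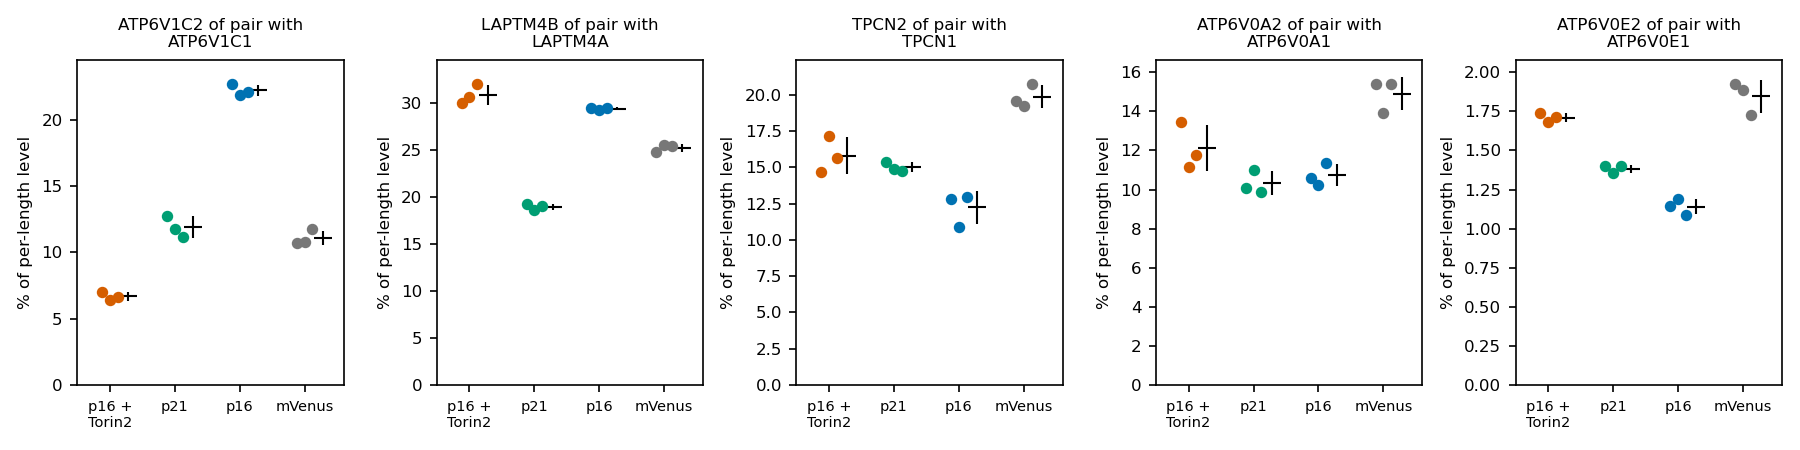
Share of the per-length level of a pair of paralogs held by the named gene, in % per library (points), with mean and SD of each group of 3 (bar). Lengths include bases shared with other genes (29.9% for ATP6V1C2, 19.7% for ATP6V0E2), and the shares were not corrected for this. The pairs were picked after values were seen; the ATP6V1C2 share averages 6.68% with Torin2, 11.9% in p21, 22.2% in p16 and 11.1% in mVenus, and the LAPTM4B share 30.9% with Torin2, 19.0% in p21, 29.5% in p16 and 25.3% in mVenus.

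CTNS and SLC38A9, the amino acid carriers, were each called in 1 of the 5 comparisons. CTNS, which exports cystine, had 13.2, 14.9 and 12.9 CPM in p16 with Torin2, 16.8, 20.3 and 18.6 CPM in p21, 17.0, 15.0 and 11.6 CPM in p16, against 18.3, 14.2 and 15.5 CPM in mVenus. The Torin2 libraries lay below those of p21, and every other pair of groups overlapped. CTNS passed in p21 over p16 (0.35 ± 0.11, SE, adjusted p = 0.014), which was lost without the third p16 or the second p21 library. SLC38A9 passed with Torin2 over mVenus (0.21 ± 0.066, SE, adjusted p = 0.0086), which was lost without the first Torin2 library and with library totals alone. In p21 over p16 as a whole, 9 of the 34 genes rose and 13 fell, against 27.2% in each direction among all genes, and the median log2 fold change was -0.054 against -0.013 for all genes. The 26.5% of the 34 that rose was near the share of all genes. With library totals alone, 11 of the 34 rose and 8 fell there, where 4360 of all 14504 genes rose and 3469 fell.

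Other genes of the lysosome were set beside the 34. For comparison, 30.9% of all genes rose and 32.8% fell in p16, and 28.2% rose and 28.3% fell in p21. With Torin2 over p16, 30.3% of all genes rose and 29.0% fell. Among 12 tested other pump subunits and assembly factors, 6 rose and 4 fell in p16, 6 rose and 3 fell in p21, and 4 rose and 6 fell with Torin2 over p16. The tissue-restricted a subunits went apart. ATP6V0A4 stood at 3.39, 3.36 and 3.48 CPM in p16 with Torin2, 29.0, 31.2 and 29.8 CPM in p21, 10.9, 9.68 and 10.0 CPM in p16, against 24.6, 22.7 and 21.8 CPM in mVenus. TCIRG1, the a3 subunit of osteoclasts, stood at 25.5, 29.9 and 30.9 CPM in p16 with Torin2, 16.7, 15.0 and 14.7 CPM in p21, 39.7, 37.7 and 33.4 CPM in p16, against 28.6, 31.0 and 29.6 CPM in mVenus. ATP6V0A4 was highest in p21 and lowest with Torin2, and TCIRG1 was highest in p16 and lowest in p21. ATP6V0A4 fell in p16 (-1.17, log2 scale) and rose in p21 (0.38), and TCIRG1 rose in p16 (0.32) and fell in p21 (-0.95).

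Among 23 other lysosomal membrane proteins 7 rose and 12 fell in p16, 10 rose and 7 fell in p21, and 3 rose and 15 fell with Torin2 over p16. The shares of all genes given above apply to this and the next lists. For the 23, the 30.4% that rose in p16 and the 30.4% that fell in p21 were near them. LAPTM5, the third LAPTM protein, known from blood cells, rose by 0.80 in p16 and 1.90 in p21 on the log2 scale and fell with Torin2 over p16 (-2.05). Of the 9 genes for Ragulator and the Rag GTPases, which hold mTORC1 on the membrane, 6 rose and 1 fell in p16, 6 rose and 2 fell in p21, and 2 rose and 5 fell with Torin2 over p16. RRAGD, a Rag GTPase named after its values were seen, rose with Torin2 over p16 (1.39, log2 scale) and stayed under 5 CPM in every library. Of the 6 tested MiT/TFE and folliculin genes, 4 fell in p16, 1 rose and 2 fell in p21, and 2 rose and 2 fell with Torin2 over p16. The 33.3% of these 6 in each direction with Torin2 was near the shares of all genes. Of 35 soluble enzymes, 16 rose and 15 fell in p16, 22 rose and 6 fell in p21, and 8 rose and 20 fell with Torin2 over p16.

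**Figure D5:**
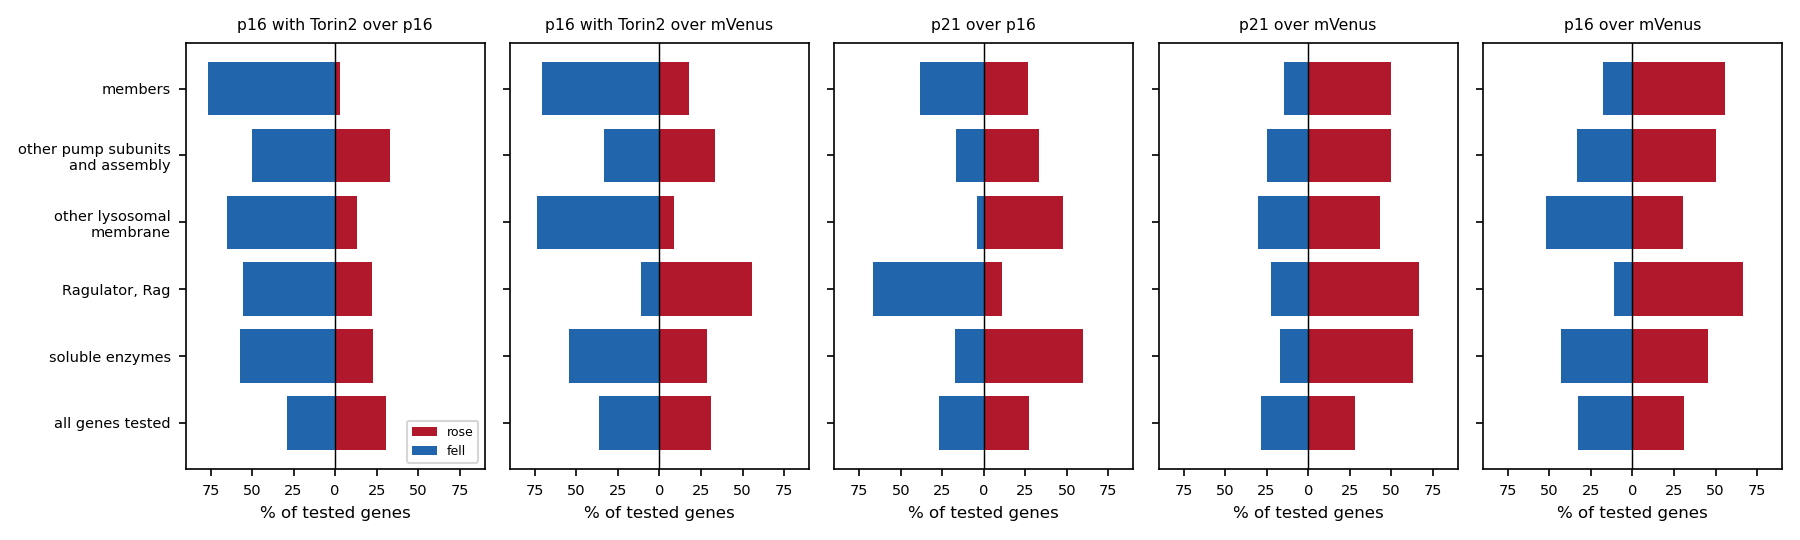
Share of tested genes called higher (right) or lower (left), in %, for the 34 genes, 4 other lists and all genes tested, in 5 comparisons. With Torin2 over p16, 76.5% of the 34 genes fell, against 29.0% of all genes tested.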

How the data were processed

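Poly(A) RNA of 12 cultures went into KAPA stranded libraries, as the labels' protocols state. For each library the authors deposited raw counts per gene; per the file headers, featureCounts 1.6.3 assigned reads to exons by gene name over GENCODE 29, with no option for strand, so a read in 2 overlapping genes could not be placed by strand. The submitters' processing notes name HISAT2, Subread, FastQC 0.11.3 and DESeq2, with GRCh38.p7 as the genome build. The authors also deposited 3 comparison tables that hold each gene's mean signal, log2 fold change, test score and p-value. They list all 35 genes and were used only as a check: all 25, 22 and 27 genes called here in p16, p21 and Torin2 over p16 had the same sign there.

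From the counts, edgeR 4.0.16 in R 4.3.3 fitted all 12 libraries with a coefficient per group (filterByExpr, TMM scaling, quasi-likelihood F test, 8 residual degrees of freedom), with Benjamini-Hochberg adjustment over 14504 genes and a threshold of 0.05, two-sided. "Rose" and "fell" mean past that threshold. The fit was tested on simulated data. CPM divides counts by TMM-scaled library sizes, and CPM per kilobase uses the exonic length in the files. A standard error is the log2 fold change divided by the square root of F. Alternatives were DESeq2 1.42.0, other scalings, no filter, only the libraries compared, the replicate number as a block, and each library left out in turn. Library totals set precision: tested genes described here had 82 to 9633 counts per library.

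The genes and lists were chosen with earlier results of these data known. Values per library are given for the 5 largest rises and falls in p16, p21 and Torin2 over p16, and the 3 largest in the other comparisons, where the higher group reached 5 CPM. From the other lists, up to 2 rises and 2 falls per comparison could be named; RRAGD and ITGAX were added after their values were seen. Same-numbered replicates had correlations of -0.082 to 0.075 between their deviations from group means over 18 pairs, none over 0.1. Libraries with different numbers reached 0.138. No sign of pairing by number was seen, which 3 replicates per group cannot exclude.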

Additional observations from a re-analysis of the deposited data

Results flagged for a closer look

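NPC1, LAPTM4B and, outside the 35 genes, ATP6V0A4 and TCIRG1 were set apart because each was called in opposite directions in p16 and p21 against the same mVenus libraries and was also called between p21 and p16. This rule is narrower than a call between p21 and p16 alone, which 22 of the 34 genes passed, was chosen after values were seen, and was applied to the 34 and to the 12 other tested pump genes. Since that call is part of the rule, the values here are a description. In p21 over p16 the log2 fold change was -0.52 ± 0.038 (SE, edgeR adjusted p = 3.5e-10) for NPC1, -0.48 ± 0.037 (SE, edgeR adjusted p = 7.0e-10) for LAPTM4B, 1.55 ± 0.073 (SE, edgeR adjusted p = 3.0e-13) for ATP6V0A4 and -1.26 ± 0.083 (SE, edgeR adjusted p = 6.8e-11) for TCIRG1. The p21 and p16 libraries did not overlap for any of the 4 genes. The call in the rule makes this likely, and the share of all genes without overlap was not counted. Groups of 3 are too small for a test of single outlying libraries.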

How the results depend on the processing

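Of 126 calls over the 5 comparisons and 34 genes, 104 held under all 19 alternatives and 22 were lost under at least 1; 18 of the 44 values not called passed under at least 1. No called value changed sign. Library totals alone gave 11 genes that fell in p16 (6 with TMM), 8 that fell in p21 (5), 8 that fell in p21 over p16 (13), 3 that rose with Torin2 over mVenus (6) and 2 that rose with Torin2 over p16 (1), as did upper quartile scaling with 2; the cause was not tested beyond the shift in the median of all genes. Leaving out 1 library gave 0 to 2 genes that rose with Torin2 over p16. With the replicate block, 19 rose and 6 fell in p16, 16 and 5 in p21, and 1 and 26 with Torin2 over p16. With the same block, 9 rose and 12 fell in p21 over p16, and 5 and 24 with Torin2 over mVenus. No sign was seen that the replicate numbers pair the samples. The sign of values called under neither setting changed in 47 cases. With no low-count filter such log2 fold changes were 0.00151 for ATP6V0A2 in p16 over mVenus, 0.049 for CLCN7 in p16 over mVenus, 0.0337 for ATP6V1C1 in p21 over mVenus, 0.0259 for CD63 in p21 over mVenus, 0.00364 for SLC38A9 in p21 over mVenus, -0.00378 for NPC2 in p16 with Torin2 over p16, 0.00633 for LAMP2 in p16 with Torin2 over mVenus. With library totals alone such log2 fold changes were -0.0476 for ATP6V0D1 in p16 over mVenus, -0.0276 for CD63 in p16 over mVenus, -0.00169 for SLC38A9 in p16 over mVenus, -0.00824 for ATP6V0B in p21 over mVenus, -0.0389 for MCOLN1 in p21 over mVenus, 0.033 for ATP6AP2 in p21 over p16, -0.0397 for ATP6AP2 in p16 with Torin2 over mVenus. With DESeq2 size factors such log2 fold changes were 0.017 for CLCN7 in p16 over mVenus, 0.00285 for ATP6V1C1 in p21 over mVenus. With the DESeq2 Wald test such log2 fold changes were 0.0169 for CLCN7 in p16 over mVenus, 0.00281 for ATP6V1C1 in p21 over mVenus. With only the libraries compared such log2 fold changes were 0.00121 for CLCN7 in p16 over mVenus, 0.00838 for ATP6AP2 in p21 over p16, 0.00624 for LAMP2 in p16 with Torin2 over mVenus. With upper quartile scaling such log2 fold changes were 0.00339 for ATP6AP2 in p21 over p16, 0.000682 for LAMP2 in p16 with Torin2 over mVenus. Leaving out 1 library gave log2 fold changes of -0.0222 to 0.0354 for CLCN7 in p16 over mVenus, -0.0194 to 0.0144 for ATP6V1C1 in p21 over mVenus, -0.0321 to 0.0123 for CD63 in p21 over mVenus, -0.0123 to 0.088 for MCOLN1 in p21 over mVenus, -0.00942 to 0.0389 for NPC2 in p16 with Torin2 over p16, -0.228 to 0.0332 for CTNS in p16 with Torin2 over p16, -0.0059 to 0.0357 for ATP6V1F in p21 over p16, -0.0464 to 0.0433 for ATP6AP2 in p21 over p16, -0.0884 to 0.00588 for SCARB2 in p21 over p16, -0.0192 to 0.0562 for ATP6AP2 in p16 with Torin2 over mVenus, -0.0587 to 0.00735 for LAMP2 in p16 with Torin2 over mVenus. Alternatives were run for the 34 genes and not for the other lists. ATP6V0C had 1 to 11 counts in any library, and the part of depth in this was not tested. SLC38A9, the lowest tested gene per length in mVenus, had 230 to 326 counts per library.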
